A study of Homo sapiens with 2 samples.

Results

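The genes examined here encode proteins of tight junctions and of the complexes that set cell polarity. The rule that picks them uses gene symbols and no measured value, although it was written with earlier results of these data known: every claudin, the zonula occludens proteins, occludin and its MARVELD relatives, the junctional adhesion molecules with ESAM, cingulin and its paralog, VE-cadherin, the Crumbs and PAR proteins and the MPP scaffolds. The symbols matched 74 probes of 52 genes, out of 58199 probes and 34757 gene symbols on the array. The scanner software scores each spot for a signal well above background, and 27 of the 52 genes had such a probe on 1 array or both, 23 of them on both arrays. The remaining 25 genes were below background on both.

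The cells were A375, a line established from a human malignant melanoma. Cells received either a small interfering RNA (siRNA) against THOC2 or a negative control siRNA (NC), and RNA was taken 48 h later. THOC2 is a subunit of the THO complex that couples transcription to mRNA export. Whether each RNA came from a single culture or from several is not stated in the methods. Each condition was measured on 1 array, a 1-colour Agilent design on which every probe of these genes had 1 spot of 60 bases, which leaves the variation from culture to culture unmeasured. No difference could be tested, and each value compares 1 array with 1 other. The methods list several THOC2 siRNAs without naming the one on the array, and the source field of both samples gives the opposite condition to title and description, which were followed.

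Tight junctions seal the gap between neighbouring epithelial or endothelial cells. Claudins span the membrane and form the strands of the seal, with occludin and other MARVEL proteins beside them. Junctional adhesion molecules of the immunoglobulin superfamily join the cells next to the strands. Zonula occludens proteins and cingulin tie the strands to actin from the inside. The Crumbs complex and the PAR complex mark the apical side of the cell and place the junction. Melanocytes do not build an epithelial sheet, and melanoma cells can nevertheless express single members of these families.

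Signals are the scanner software's processed intensities, which are not scaled between arrays. Differences are log2 of the THOC2 siRNA signal minus log2 of the NC signal after each array's 75th percentile was subtracted, and that scaling raised the THOC2 siRNA array by 0.31 against the NC array. A signal that is slightly lower on the THOC2 siRNA array as measured can therefore give a difference above 0. Repeated spots of other probes gave the technical SD of such a difference, 0.05 at a mean log2 signal over 8 (244 probes), 0.10 between 6 and 8 (36 probes), 0.17 between 4 and 6 (5 probes) and 0.42 under 4 (15 probes). These SDs leave out differences between cultures. The lowest signal well above background was 14.7 with NC siRNA and 15.9 with THOC2 siRNA. Both probes of THOC2 itself were lower on the array labelled THOC2 siRNA, at 40.9 against 136 (log2 difference -1.42) and at 35.1 against 67.3 (-0.63).

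The labelled cell type was set against marker genes. SOX10, a transcription factor of the melanocyte lineage, had signals of 6196 with NC siRNA and 5196 with THOC2 siRNA, and MITF, another, had probes measured on both arrays. S100B, also of the neural crest, had 199 and 102 (difference -0.66). Of the pigment genes, DCT was dim on both arrays (18.0 and 24.4, difference 0.75), MLANA was above background only with THOC2 siRNA, and PMEL, TYR and TYRP1 were below it on both. Of 14 epithelial markers, the keratin genes KRT8 (2223 and 1572 at its brighter probe) and KRT18 (29881 and 31561) were bright, OVOL2, ST14 and ESRP2 were measured on both arrays, and KRT19 and ELF3 on 1 each, while CDH1, EPCAM, ESRP1, GRHL2, OVOL1, PRSS8 and RAB25 were below background on both arrays. Several tight junction genes are also known from endothelium. Of 12 endothelial markers, 6 were measured on both arrays, among them ROBO4 (1786 and 1849) and EGFL7 (400.1 and 244), VWF was measured with NC siRNA only, and CLEC14A, EMCN, ERG, TEK and TIE1 were below background on both. The summed signal of the compared endothelial marker probes was 2438 with NC siRNA and 2291 with THOC2 siRNA, and that of the epithelial ones 39429 and 41068. Of the endothelial markers measured on both arrays, FLT1 had the lowest difference, at 44.0 and 18.1 (-0.98), and PECAM1 the highest, at 16.2 and 17.6 (0.43), and their part in the values of CDH5, ESAM and JAM2 was not tested.

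With THOC2 siRNA, 5 of the 35 compared member probes were lower by 2-fold or more and 0 were higher. Over all 25345 compared probes, 3.33% were lower and 2.93% higher by 2-fold. The 5 probes belonged to CRB3, MPP7, ESAM, CDH5 and JAM2, and none of them was well above background with THOC2 siRNA. On the NC array their signals lay between 16.8 and 22.8, just over the lowest signal that array measured. The first 30 of the 60 bases of these probes are shown, 5′ to 3′ and without capitals. They identify the 5 probes called lower by 2-fold, each resting on a THOC2 siRNA signal not well above background.

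CRB3: cccctgaggtcaagagaggatggggctatt
MPP7: ctgtgatatgaagtgatgtaattgaacttg
ESAM: gtcaagctggctctctggtatgatgacccc
CDH5: taactcaaagacttcctctggctccccaag
JAM2: tttttagttggaggtttgacctaagtctgg

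Of these genes, JAM2 also had brighter probes, measured on both arrays. Their first 30 bases are given with those of its relative F11R, both of whose probes were measured on both arrays, and of the scaffold INADL (now named PATJ), which had 1 probe measured on both arrays and a dim one, shown last.

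F11R at chr1:160966033-160966092: tttacttctctagcttacaatggacctttt
F11R at chr1:160967950-160968009: aagccaaaaggatttaaaaccgctgctcta
JAM2 at chr21:27078338-27078397: ttagtgatttccgtttgtggccttggtgta
JAM2 at chr21:27087158-27087217: gttctgtcgacacctaaaatataatctggc
INADL at chr1:62580523-62580582: tgtgaatagccactgcacttgagcctcttg
INADL at chr1:62628634-62628693: ccatgaaggatgagtactagagtcagtaat

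Positions are on hg19 as the deposited annotation gives them, and exons and UTRs were not analysed here. No member probe shared a stretch of 20 bases with a probe of another gene.

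CRB3 is the Crumbs protein of epithelial cells and an anchor of the apical polarity complex. Its probe (chr19:6467158-6467217, plus strand, 19p13.3) had a signal of 22.8 with NC siRNA and 3.25 with THOC2 siRNA, where it was not well above background. The log2 difference was -2.50, with a technical SD of 0.42. The probe stood in a block of the array in which 8.70% of compared probes were lower by 2-fold, against 3.33% over the array. After each block was centred on 0 the difference was -2.49. Against the lowest signal that the THOC2 siRNA array measured, CRB3 was at least 1.16-fold lower after scaling. As a log2 difference this bound is -0.21, which is smaller than the technical SD of 0.42. CRB3 was the only member for which such a bound could be given.

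MPP7, a scaffold that binds the polarity protein DLG1, had a signal of 18.2 with NC siRNA and 3.19 with THOC2 siRNA (chr10:28339931-28339990, minus strand), a log2 difference of -2.20. ESAM, an adhesion molecule of endothelial cells and platelets, had 16.8 and 3.91 (chr11:124623505-124623564, minus strand), a difference of -1.80. CDH5, the VE-cadherin of endothelial adherens junctions, had 17.0 and 5.40 (chr16:66437356-66437415, plus strand), a difference of -1.35. These differences are as the scanner output gives them and are no measured size, because the THOC2 siRNA signals were not well above background. The scaled NC signals lay below the lowest scaled signal measured with THOC2 siRNA, so no bound could be given, and with dim signals at their limit each difference was 0. The third JAM2 probe (chr21:27089754-27089813, plus strand) gave the same picture, with 17.0 and 5.86 and a difference of -1.23.

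The dim INADL probe was also above background with NC siRNA only, but was not called. It had 17.1 and 7.65, a log2 difference of -0.85. Thus 5 of the 7 member probes measured on the NC array alone were lower by 2-fold, and of all 2409 probes measured there alone 31.7% were. No member probe was measured on the THOC2 siRNA array alone. When dim signals were set to the lowest measurable signal, 0 member probes were lower by 2-fold, against 0.888% of all compared probes. Normexp background correction models signal and background jointly and was run with an offset of 50 added to each signal. After it the difference of CRB3 was -0.35, and 0 of the 5 were lower by 2-fold. The offset is larger than the NC signals of these probes and shrinks dim differences towards 0. That count of 0 therefore cannot decide about the calls.

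**Figure D1:**
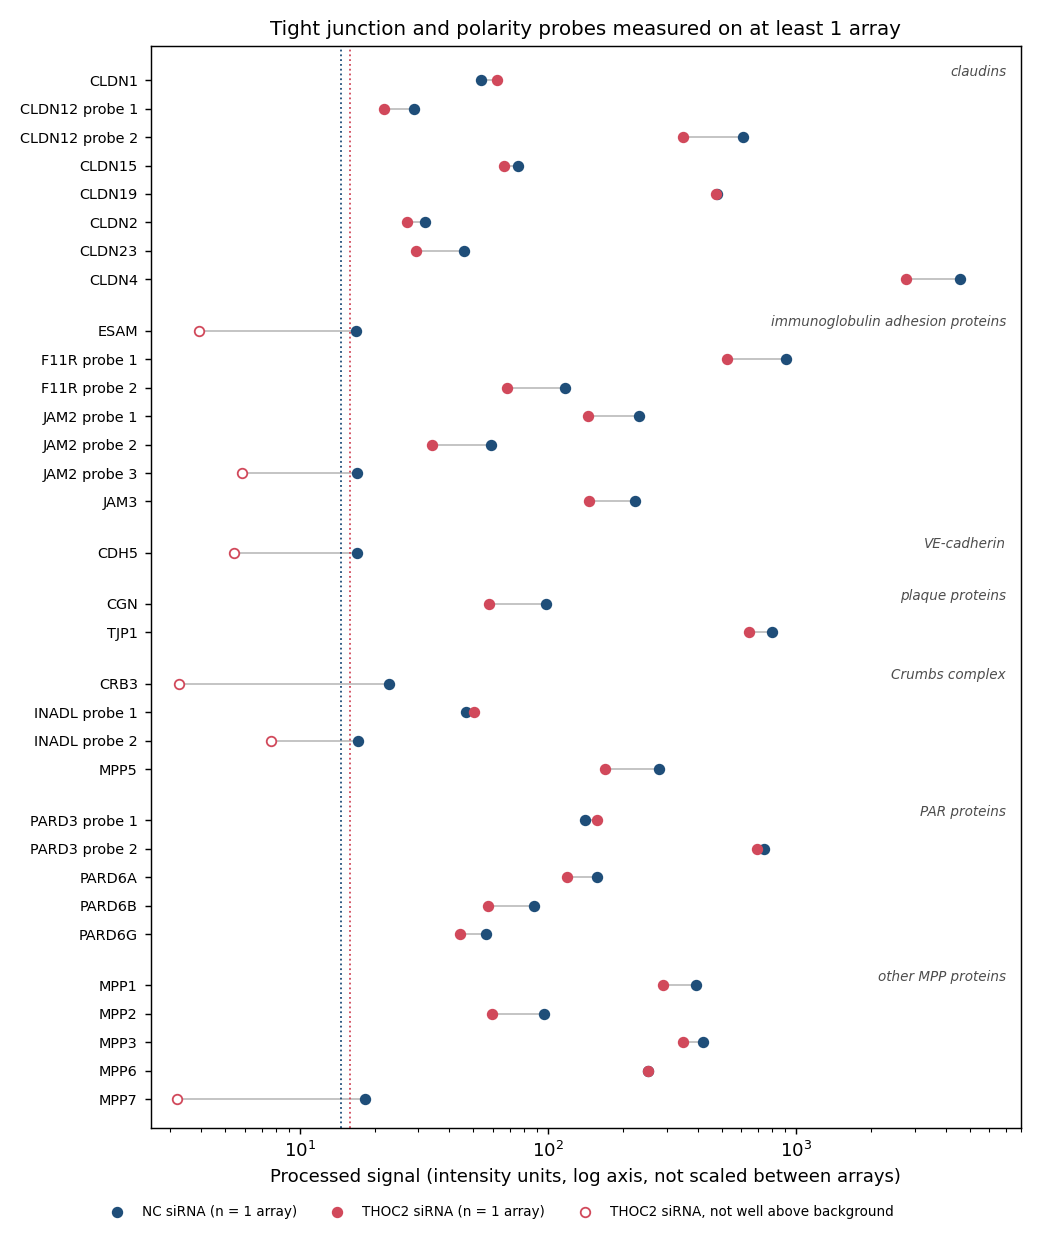
Processed signal (log axis, intensity units, not scaled between arrays) of 32 member probes measured on 1 array or both, grouped by role; blue points are the NC array, red points the THOC2 siRNA array, open points signals not well above background, and dotted lines the lowest measured signal of each array (14.7 and 15.9). The 6 open points, from 3.19 to 7.65, have NC signals between 16.8 and 22.8, close to the dotted lines, while the other 26 probes lie above the lines on both arrays.

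Of the 28 member probes measured on both arrays, 0 reached a 2-fold decrease and 0 a 2-fold increase, which 0.365% and 0.829% of all 22207 such probes did. Their differences ran from -0.49 to 0.53, with a median of -0.10 against 0.04 for all probes. Of these 28, 19 lay below 0, which is 67.9%, against 43.1% of all probes measured on both arrays. With normexp correction the count below 0 was 16 of 28, against 11099 of all 22207. Under lowess centring it was 19 of 28, against 10622 of all 22207. Dim probes spread more widely than bright ones, so each probe was also placed among those within 0.5 of its mean log2 signal. By this measure 7 member probes lay in the lowest 10% (9.76% of all probes do), those of CGN, CLDN4, MPP5, F11R (both), JAM2 and CLDN12. In the highest 10% were 4 (9.88% of all probes), of CLDN1, CLDN19, MPP6 and PARD3. With 28 probes, several of them for the same gene, these counts describe the 2 arrays and no more.

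**Figure D2:**
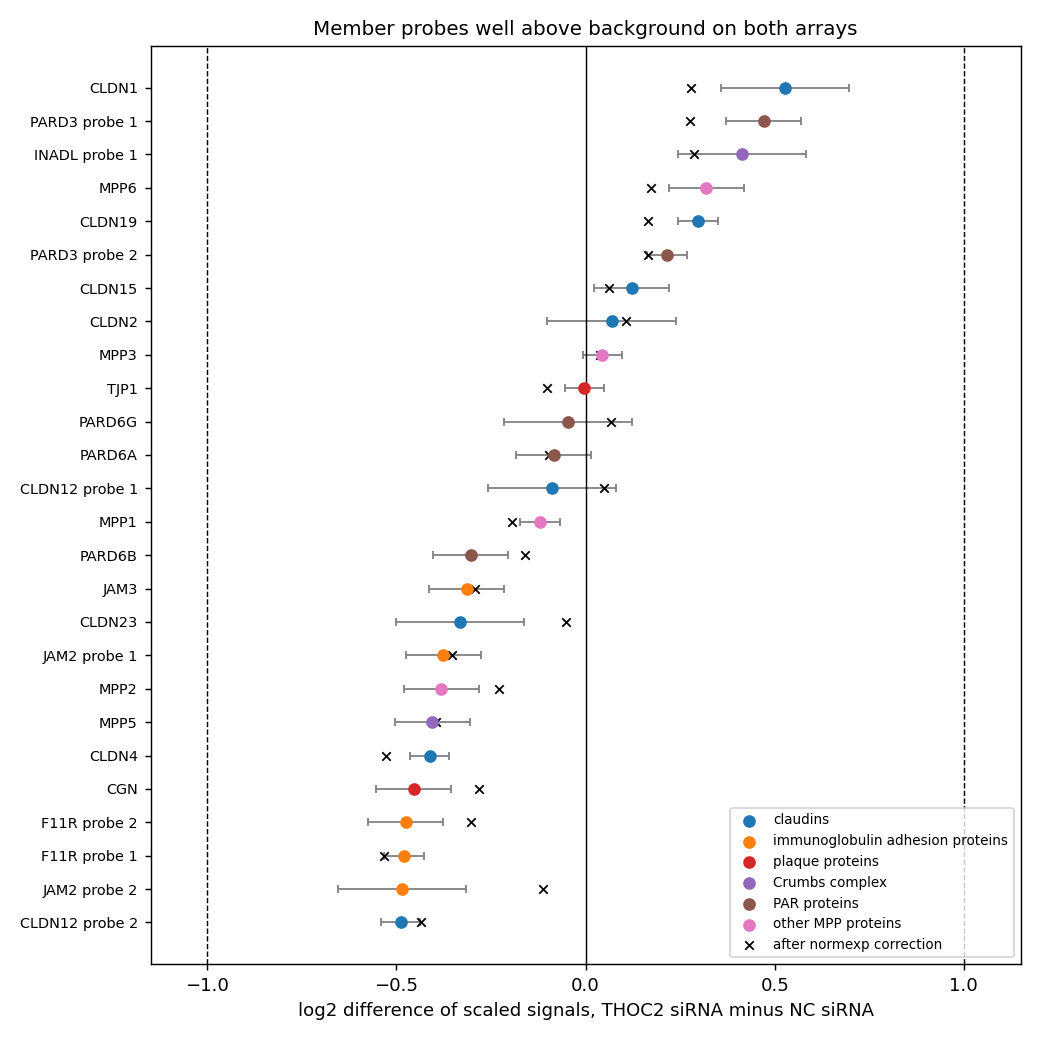
Log2 differences of scaled signals, THOC2 siRNA minus NC siRNA, of 26 member probes measured on both arrays, ordered by value and coloured by role; bars are the technical SD from repeated spots, crosses the value after normexp correction, and dashed lines the 2-fold limits. All points lie inside the limits, between -0.49 and 0.53, and the 5 points of immunoglobulin adhesion proteins all lie between -0.49 and -0.31.

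The junctional adhesion molecules shared a direction. All 5 of their probes measured on both arrays were lower with THOC2 siRNA, with a median difference of -0.48. F11R, also called JAM-A, recruits the PAR complex to new cell contacts. Its brighter probe had a signal of 908 with NC siRNA and 525 with THOC2 siRNA, a log2 difference of -0.48 with a technical SD of 0.05. Of all probes of like signal, 1.99% had a lower difference. The dimmer F11R probe had 117 and 68.0, also a difference of -0.48 (technical SD 0.10). The F11R probes lie at different places in the gene and differed from each other by less than the technical SD. After normexp correction they lay further apart, at -0.53 for the brighter and -0.30 for the dimmer probe.

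JAM2 (JAM-B) is known from vascular endothelium. Its brightest probe had 233 with NC siRNA and 145 with THOC2 siRNA, a log2 difference of -0.38 (technical SD 0.10), and 7.08% of probes of like signal were lower. The second JAM2 probe had 58.9 and 34.0, a difference of -0.49 (technical SD 0.17). Both fall short of the 2-fold difference recorded at the third, dim JAM2 probe, which was the only probe of that gene below background on an array. JAM3 (JAM-C), a partner of JAM2 across cell contacts, had 225 and 146 (chr11:134020792-134020851, plus strand), a difference of -0.31 (technical SD 0.10), and 10.6% of probes of like signal were lower. The 5 probes of F11R, JAM2 and JAM3 measured on both arrays all stayed below 0 under lowess centring (median -0.47) and under normexp correction (median -0.30). With normexp correction the second JAM2 probe was at -0.11, within its technical SD of 0.17. The brightest JAM2 probe stood in a block of the array in which 8.33% of compared probes were lower by 2-fold, and after each block was centred on 0 its difference was -0.35.

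Claudins, the strand-forming proteins, were mostly not measurable. Of 23 claudin genes, 16 were below background on both arrays: CLDN3, CLDN5, CLDN6, CLDN7, CLDN8, CLDN9, CLDN10, CLDN11, CLDN14, CLDN16, CLDN17, CLDN18, CLDN20, CLDN22, CLDN24 and CLDN25. The other 7 had 8 probes measured on both arrays, of which 4 were lower and 4 higher, with a median difference of -0.01. The claudins thus had no common direction.

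CLDN4, a sealing claudin of tight epithelia, had a signal of 4558 with NC siRNA and 2763 with THOC2 siRNA (chr7:73246907-73246966, plus strand), a log2 difference of -0.41 (technical SD 0.05), and 1.90% of probes of like signal were lower. After normexp correction the difference was -0.53. A second CLDN4 probe was below background on both arrays. CLDN12, a claudin that lacks the PDZ-binding end of its relatives, had 608 and 350 at its brighter probe (chr7:90044941-90045000, plus strand), a difference of -0.49 (technical SD 0.05), with 2.05% of like probes lower. Its dimmer probe had 28.8 and 21.9, a difference of -0.09 (technical SD 0.17). The probes of CLDN12 therefore differed from each other by 0.40, which was more than either technical SD.

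CLDN1, a main claudin of the epidermal barrier, went the other way. Its signal was 53.7 with NC siRNA and 62.4 with THOC2 siRNA (chr3:190024001-190024060, minus strand), a log2 difference of 0.53 (technical SD 0.17), the highest of the members. Among probes of like signal 93.2% were lower. CLDN19, known from the kidney and the eye, had 477 and 473 at the probe that was measured, and a difference of 0.30 (technical SD 0.05) once scaled. Its second probe was below background. CLDN23 had 45.8 and 29.3, a difference of -0.33 (technical SD 0.17), with 19.9% of like probes lower. CLDN2, a pore-forming claudin, had 31.9 and 27.0 (difference 0.07), and CLDN15, a pore-forming claudin of the intestine, had 75.6 and 66.4 (difference 0.12). For CLDN2 the difference was within the technical SD. The MARVEL proteins OCLN, MARVELD2 and MARVELD3 were below background on both arrays at all 6 of their probes.

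Of the plaque proteins that join the strands to actin, 2 are given. TJP1 (ZO-1) had 801 with NC siRNA and 645 with THOC2 siRNA, and a log2 difference of -0.0034 (technical SD 0.05). It lay within the technical SD of 0. CGN, cingulin, had 98.1 and 57.8 (chr1:151511070-151511129, plus strand), a difference of -0.45 (technical SD 0.10), with 8.64% of like probes lower. TJP3 and CGNL1 were below background on both arrays.

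In the Crumbs complex, MPP5 (now PALS1) links the Crumbs tail to INADL. MPP5 had a signal of 279 with NC siRNA and 170 with THOC2 siRNA (chr14:67802437-67802496, plus strand), a log2 difference of -0.41 (technical SD 0.10), and 5.57% of like probes were lower. The brighter INADL probe had 46.8 and 50.4, a difference of 0.41 (technical SD 0.17), with 87.5% of like probes lower. The dim INADL probe gives no measured difference to set against it, since it was not well above background with THOC2 siRNA. CRB1 and CRB2, known from retina and other epithelia, were below background on both arrays.

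The PAR proteins hold atypical protein kinase C and CDC42 in the apical complex. PARD3, the scaffold at the junction, was higher with THOC2 siRNA at both measured probes. A probe whose bases lie apart on the genome (chr10:34408658-34420439, minus strand) had 141 with NC siRNA and 157 with THOC2 siRNA, a log2 difference of 0.47 (technical SD 0.10), with 95.8% of like probes lower. The other PARD3 probe had 740 and 693, a difference of 0.22 (technical SD 0.05) once scaled, with 78.3% of like probes lower. After each block was centred on 0 its difference was 0.13. The remaining PARD3 probe was below background. The adaptors that bind the kinase gave lower or nearly equal values. PARD6A had 157 and 119 (difference -0.08), PARD6B had 87.5 and 57.2 (difference -0.30, technical SD 0.10), and PARD6G had 56.4 and 44.0 (difference -0.05). For PARD6B 17.7% of like probes were lower. PARD6A and PARD6G lay within their technical SDs of 0. PARD3B was below background on both arrays.

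The remaining MPP scaffolds, membrane-associated guanylate kinases, did not share a direction. MPP2 had 95.8 with NC siRNA and 59.3 with THOC2 siRNA, a log2 difference of -0.38 (technical SD 0.10). MPP1, a red cell membrane scaffold also made elsewhere, had 393 and 291, a difference of -0.12 (technical SD 0.05), with 25.5% of like probes lower. MPP3 had 419 and 348, a difference of 0.04 within its technical SD. MPP6 (now PALS2) had 251 and 253, a difference of 0.32 (technical SD 0.10), with 90.2% of like probes lower. MPP4 was below background on both arrays, and MPP7 was the dim called probe described above.

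**Figure D3:**
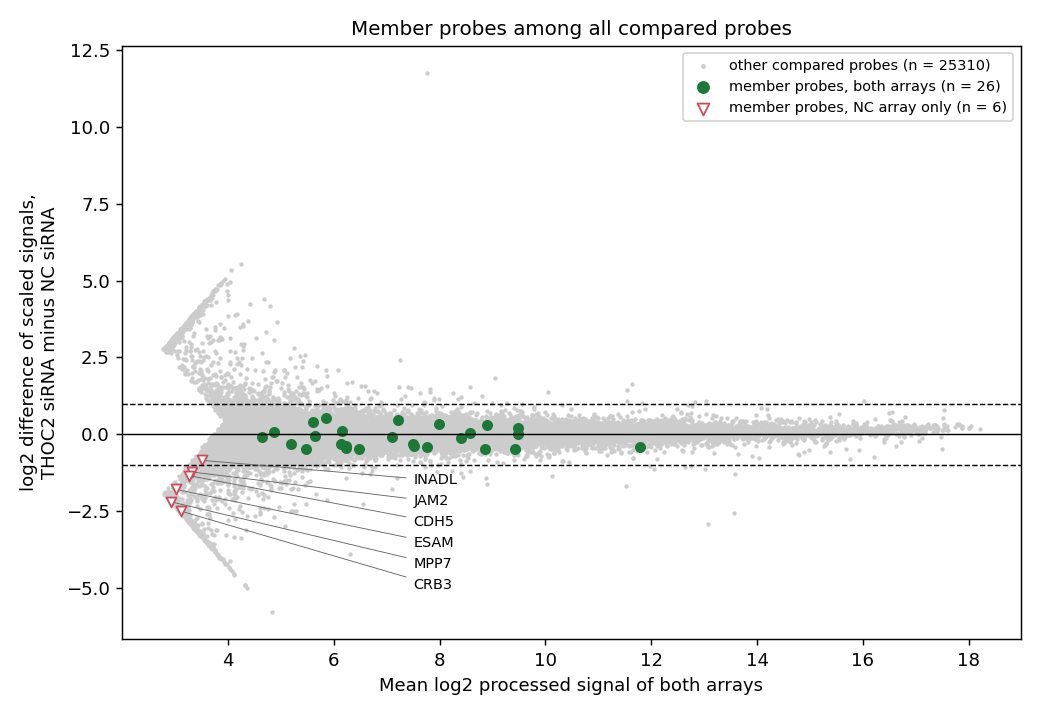
Log2 difference of scaled signals (THOC2 siRNA minus NC siRNA) against the mean log2 processed signal of both arrays, for 32 member probes and the other 25310 compared probes (grey); filled green points were measured on both arrays, open triangles on the NC array only, and dashed lines mark 2-fold. The 6 triangles lie at the dim end, where the grey points fan out, and no green point passes the dashed lines.

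Brightness and base composition were set beside these differences. Of member probes with a mean log2 signal over 8, 6 of 9 were below 0, with a median of -0.02, against 37.1% of all such probes. Between 6 and 8 it was 8 of 11, with a median of -0.31, against 50.2% of all. Between 4 and 6 it was 5 of 8, with a median of -0.07, against 45.8%. The bases G and C made up 25.0% to 51.7% of the 5 probes lower by 2-fold (median 35.0%), 28.3% to 55.0% of the 28 measured on both arrays (median 40.8%) and 35.0% to 66.7% of the 39 below background on both (median 43.3%). The part of composition in the differences was not tested.

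Other genes of the same pathways were taken from fixed lists. Of 16 polarity partners, LIN7C was not analysed here, 12 genes had 18 probes measured on both arrays, and 0 probes were lower or higher by 2-fold. Their median difference was 0.07, with values from -0.66 to 0.59. The lowest was 1 of 3 probes of CDC42, the small GTPase of the PAR complex, with 183 and 93.6, while its brightest had 5510 and 4763 (difference 0.10). SCRIB, a basolateral polarity scaffold, had 5103 and 5432 (difference 0.40), and PRKCZ, an atypical protein kinase C, had 3245 and 2581 at its brighter probe (difference -0.02). The partners' median thus lay near that of all probes (0.04), whereas the members' lay at -0.10.

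Of 18 other junction genes, 16 were measured on at least 1 array, and 1 of 25 compared probes was lower by 2-fold, near the 3.33% of all compared probes. It belonged to ARHGEF2, a RhoA exchange factor that cingulin binds, with 17.4 with NC siRNA and 5.06 with THOC2 siRNA, not well above background on the latter. The other ARHGEF2 probes had differences from -0.09 to -0.03. The brightest of these genes were SYMPK, a scaffold first seen at junctions that also acts in mRNA 3′ end processing (14275 and 12794, difference 0.15), AMOTL2, an angiomotin (6547 and 7270, difference 0.46), and YBX3, a ZO-1 partner (3526 and 3067, difference 0.11). Their 22 probes measured on both arrays had a median of 0.03.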

How the data were processed

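RNA of A375 cells was hybridized to 1 Agilent 1-colour array per siRNA. The authors deposited scanner output with an intensity for each spot (processed signal, background subtracted). Agilent Feature Extraction 10.7.1.1 is named in the submitters' processing notes. The authors also deposited normalized log2 values, used as an alternative, and a table of their own fold changes, which was not used.

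Control spots and flagged spots (147 and 168) were left out, and no spot was saturated. Spots of a probe were averaged as log2, and the 75th percentile of each array was subtracted. A probe was compared if either array measured it well above background, and called at 2-fold. Precision is limited by the number of arrays, 1 per group, and no test was run. A bound divides the measured signal by the lowest signal well above background on the other array, or by the dim signal if that is larger, after scaling.

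Member genes are named, except 1 that is counted but not reported here: those measured on both arrays with signals, those on 1 array with a bound where one exists, and those below background by name. From partner lists, called genes and the 3 brightest are named. Leukocyte markers were also listed: 4 of 5 were found, and PTPRC, CD3E and CD14 were dim on both arrays (24.0 to 37.4). Members and lists were chosen with earlier results of these data known. All 52 member genes matched RefSeq's current gene table by identifier, and 3 have new names. Alternatives are given at the end. The calculation was tested on simulated data built from probes well above background. That test does not cover signals below background, on which the calls rest. Python 3.11.15, pandas 2.3.3, statsmodels 0.14.6, R 4.3.3 and limma 3.58.1 were used.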

Additional observations from a re-analysis of the deposited data

How the results depend on the processing

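The count of member probes lower by 2-fold (5) was also 5 under quantile normalization, scaling on the median, centring by blocks of the array and the authors' normalized values, and was 4 of 27 genes when genes replaced probes. The count was 3 under lowess centring (633 of all 25345 compared probes) and 3 at a fold of 3 (1.98% of all). It was 0 with normexp correction (0.130%), 0 over probes measured on both arrays (0.365%) and 0 with dim signals at their limit (0.888%), and 7 of 74 without a detection filter (3.31%). The count of higher probes was 0 throughout, except 5 of 74 without a detection filter (3127 of all 58199 probes), which adds probes below background on both arrays. The median difference of the 35 compared member probes was -0.31 (0.026 for all compared probes), and 7 of the 35 were measured on the NC array only. It was -0.10 with normexp correction (0.0035 for all) and -0.10 over probes measured on both arrays (0.043 for all). Without the filter it was 0.025 (0.305 for all), and with dim signals at their limit -0.047 (0.021 for all). Under the other settings it lay between -0.32 and -0.29. Leaving out signals below background removes the calls by construction, since all 5 rest on one. Setting such signals to their limit does not remove every call: 225 of all compared probes stayed lower by 2-fold, against 81 of those measured on both arrays. The 5 member probes had NC signals of 16.8 to 22.8, too near the lowest signal measured with THOC2 siRNA (15.9) to stay called. Normexp correction added an offset of 50 to each signal, which shrinks dim differences towards 0, so its count of 0 cannot decide about these calls. For lowess centring the cause was not tested. Single probes moved by more than their technical SD in 22 of 35 cases with normexp correction and in 8 with lowess centring. No paired analysis was possible because each condition has a single array. Signals near background limit all 5 calls.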
